A study of Mus musculus with 9 samples.

Results

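Respiratory complex I is described here through the genes of its nuclear-encoded subunits. Members were the genes of the series whose symbol is Ndufa, Ndufab, Ndufb, Ndufc, Ndufs or Ndufv followed by a number, that reached an FPKM of 0.5 in 3 or more of 9 libraries. FPKM counts sequenced fragments per kilobase of transcript and is adjusted for the number of fragments mapped in the library. The symbols matched 38 rows and 37 were kept, of 14013 genes kept in all. The row not kept, Ndufb1, was listed at 0 in all 9 libraries, and the lowest value of any member in any library was 18.98 FPKM, for Ndufa11 in running replicate 2. RNA came from the medial prefrontal cortex (mPFC) of mice, in 3 groups of 3 libraries. The running group is labelled as exercise, and the series design places the running in mice exposed to chronic unpredictable stress. The CUS group had chronic unpredictable stress, and the control group had none. The labels also carry week 4 and week 8 without saying what each refers to, and give no strain, sex or age.

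Complex I is the entry point of the respiratory chain in the inner mitochondrial membrane. It takes electrons from NADH, passes them along a chain of iron-sulfur clusters to ubiquinone, and pumps protons across the membrane. Its matrix arm holds the redox chain, its membrane arm holds the pumps, and accessory subunits surround this core. Neurons draw heavily on oxidative phosphorylation, and inherited defects of complex I often affect the brain. The membrane core subunits are encoded by mitochondrial DNA and were not analysed here.

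Promoters of 4 members are shown because these genes are among the 5 with the smallest p-values in the running and CUS libraries. That of Ndufab1, the other of the 5, is not shown. Each is the 250 bases before an annotated transcript start, 5′ to 3′ on the strand of the gene, from RefSeq on GRCm38.p6. Ndufs7 lies on the plus strand of chromosome 10, with the window at chr10:80249199-80249448; it precedes one annotated start but lies inside the gene span, which begins further upstream at 80249105. The Ndufs5 window is chr4:123718187-123718436 and that of Ndufa8 is chr2:36049339-36049588, both on the minus strand. The Ndufa11 window is chr17:56717512-56717761 on the plus strand. Capitals mark matches to GCGCA, any base and GCGC in a row, the motif of NRF1 (nuclear respiratory factor 1), a factor known for activating respiratory chain genes.
Ndufs7: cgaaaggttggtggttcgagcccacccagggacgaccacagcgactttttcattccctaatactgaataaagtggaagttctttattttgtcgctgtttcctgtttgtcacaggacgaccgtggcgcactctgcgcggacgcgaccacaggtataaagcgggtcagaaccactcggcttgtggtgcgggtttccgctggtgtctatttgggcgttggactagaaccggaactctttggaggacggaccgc
Ndufs5: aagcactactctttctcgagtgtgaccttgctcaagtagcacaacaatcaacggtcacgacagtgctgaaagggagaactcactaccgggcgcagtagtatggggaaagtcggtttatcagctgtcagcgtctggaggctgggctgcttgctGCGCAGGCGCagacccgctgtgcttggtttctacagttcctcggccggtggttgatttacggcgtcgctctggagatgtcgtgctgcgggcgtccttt
Ndufa8: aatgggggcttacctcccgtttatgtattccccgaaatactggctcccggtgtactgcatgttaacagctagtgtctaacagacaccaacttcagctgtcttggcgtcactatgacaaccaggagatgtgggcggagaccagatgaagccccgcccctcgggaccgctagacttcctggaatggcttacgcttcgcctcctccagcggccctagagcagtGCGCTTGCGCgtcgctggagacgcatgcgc
Ndufa11: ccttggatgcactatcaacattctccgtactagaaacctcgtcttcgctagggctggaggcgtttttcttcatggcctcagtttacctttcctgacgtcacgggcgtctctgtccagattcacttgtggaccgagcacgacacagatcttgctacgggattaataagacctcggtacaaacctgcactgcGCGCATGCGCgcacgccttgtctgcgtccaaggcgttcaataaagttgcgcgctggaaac

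The match in Ndufs5 began 98 bases before the start, that in Ndufa8 30 bases before it on the opposite strand, and that in Ndufa11 60 bases before it on both strands. The Ndufs7 window had no match. Windows of 300 bases, which add the 50 bases after the start, were found for 33 of the 37 members and searched on both strands. For 27 of the 33, the bases after the start were found in the first part of a GENCODE M21 transcript of the gene. The NRF1 motif was in 7 of the 33 (21.2%), against 10.6% of the 11159 tested genes with a window. The 7 were Ndufa5, Ndufa6, Ndufa8, Ndufa11, Ndufb4, Ndufs5 and Ndufs6, and Ndufb4 held 3 matches. AAGATGGCG, the motif of YY1, was in 5 members (15.2%, against 3.26%), each time within the 50 bases after the start: Ndufa9, Ndufc1, Ndufs4, Ndufs6 and Ndufs7. CCGGAAG, the motif of the ETS family, was in 4 members (12.1%, against 18.2%), namely Ndufs3, Ndufb6, Ndufb7 and Ndufs8. TNAAGGTCA, the motif of oestrogen-related receptors, was in Ndufb4 alone among the members (3.03%, against 1.01%). None of the 4 motifs was in 18 of the 33 members. A match describes the letters of the window and is not evidence of binding.

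Before any difference is given, CUS replicate 3 has to be set apart. For each gene and library, log2(FPKM + 0.5) was taken minus the mean of the gene over the 9 libraries. The median of this deviation over the 37 members was -0.02, -0.21 and -0.17 in running replicates 1, 2 and 3, 0.13, 0.01 and 0.37 in CUS replicates 1, 2 and 3, and -0.08, -0.07 and 0.03 in the controls. CUS replicate 3 held the highest value for 33 of the 37 members (89.2%), whereas it held the highest value for 30.9% of all genes. CUS replicate 1 was highest for 3 members, Ndufs1 and Ndufa10 among them, and CUS replicate 2 for Ndufv1. Running replicate 2 was lowest for 23 members, running replicate 3 for 11, and control replicate 2 for Ndufb4, Ndufs8 and Ndufa9. CUS replicate 3 also had the highest FPKM sum over all genes, 423257, against 370441 to 393663 in the other 8 libraries. Every CUS sum (386366 to 423257) lay above every running sum (370441 to 378824), with control sums of 377545 to 390537.

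**Figure D1:**
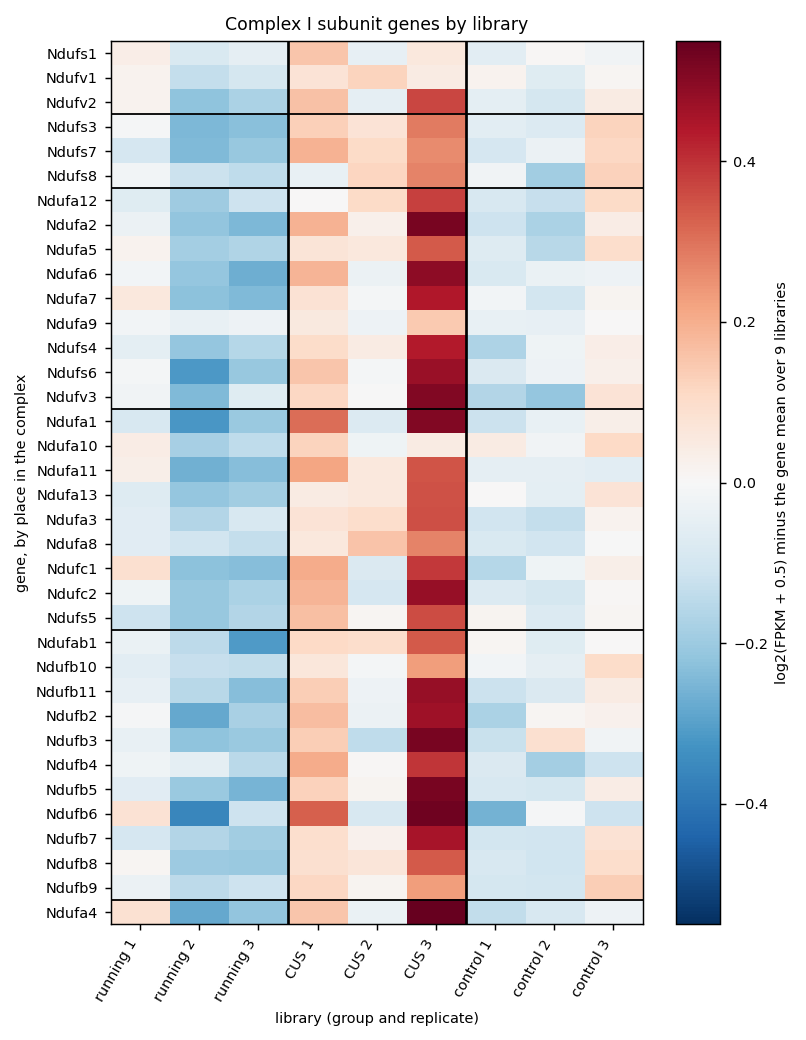
Deviation of 36 of the 37 complex I subunit genes (rows, grouped by place in the complex) from the gene's mean over 9 libraries, as log2(FPKM + 0.5), in running, CUS and control libraries (columns). The column of CUS replicate 3 is above 0 for all 36 genes drawn and those of running replicates 2 and 3 are below 0 for all 36.

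The tissue label was checked on fixed marker lists. The summed FPKM of 5 cortical excitatory neuron markers, Slc17a7 and Camk2a among them, was 1766 to 1856 in running libraries, 1688 to 1753 in CUS libraries and 1725 to 1789 in controls. Oligodendrocyte markers summed to 495 to 560 FPKM in running, 417 to 628 in CUS and 564 to 1064 in control libraries. Of 5 choroid plexus markers 3 were not kept, and Ttr reached 212.18 FPKM in control replicate 3, against 5.65 to 38.81 in the other 8 libraries. In bulk tissue, fewer cells of a type and less RNA per cell cannot be told apart.

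The members were abundantly expressed. Mean FPKM over the 9 libraries was 23.11 to 401.8, with a median of 98.7, and 74.87% of kept genes had a mean below that of the lowest member. All kept genes had a median of 9.178 FPKM. Ndufa4 was the highest, followed by Ndufa3 at 227.7 and Ndufb9 at 224.3, and Ndufa11 and Ndufs4 (29.67) were the lowest. The sum over the 37 members was 4005, 3535 and 3585 FPKM in running libraries, 4431, 4091 and 5262 in CUS libraries, and 3833, 3812 and 4150 in control libraries, or 0.954% to 1.24% of all FPKM. By place in the complex, the median of the mean FPKM was 73.14 for the 3 core subunits of the NADH arm, 98.5 for the 4 of the quinone arm, 95.8 for 9 accessory subunits of the matrix arm, 90.85 for 9 of the proximal membrane arm and 115.6 for 11 of the distal membrane arm. These ranges overlapped widely, for example 23.11 to 227.7 FPKM among the proximal accessory subunits.

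In CUS mPFC against control mPFC, all 37 members had the higher mean in CUS, whereas 55.9% of all genes did. Means in such counts are of log2(FPKM + 0.5). The median log2 difference of the members was 0.20, from 0.00 for Ndufa10 to 0.39 for Ndufb6, beside a median of 0.02 over all genes. No member passed the test: limma with Benjamini-Hochberg adjustment over 14013 genes gave adjusted p-values of 0.253 and above to the members, and called 1 gene in all (0.00714%) at an adjusted p under 0.05. At an unadjusted p under 0.05 in limma, 16 of 37 members were higher, against 8.9% of all genes. In 7 members (18.9%) every CUS library lay above every control library, against 12.1% of all genes and 17.4% of genes with transcripts under 1000 bases. Of those 897 short genes, 81.6% had the higher mean in CUS, with a median of 0.17. An unadjusted p under 0.05 in limma and a higher mean in CUS were found for 21.5% of them. With FPKM rescaled to TPM or quantile normalized, 35 members were higher in CUS and 2 were lower, Ndufa10 among them. The members' median was then 0.14 in both, beside -0.04 (TPM) and 0.01 (quantile) over all genes.

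In running mPFC against CUS mPFC, all 37 members had the lower mean in running, whereas 57.8% of all genes did. The median log2 difference was -0.32, from -0.45 for Ndufa1 to -0.08 for Ndufa9, beside -0.03 over all genes. In limma no member was called at an adjusted p under 0.05 and 1 gene was called in all (0.00714%), with adjusted p-values of 0.0776 to 0.418 for the members. At an adjusted p under 0.1 there were 12 of 37 members in limma, against 6.62% of all genes and 174 of 897 genes with transcripts under 1000 bases. At an unadjusted p under 0.05 there were 34, against 15.7% lower among all genes, the exceptions being Ndufs1, Ndufa9 and Ndufa10. Every running library lay below every CUS library in 23 members (62.2%), against 15.9% of all genes. Of the 897 genes under 1000 bases, 88.2% had the lower mean in running and 39.7% were lower with no overlap. An unadjusted p under 0.05 in limma and a lower mean in running were found for 51.5% of them. The members' median was -0.22 both after rescaling to TPM and after quantile normalization, beside 0.06 and 0.00 over all genes. Ndufa9 was higher in running after quantile normalization (0.01), and Ndufa9 and Ndufs1 were higher after rescaling to TPM (0.02 and 0.01). This comparison shares its CUS libraries with the one above, so CUS replicate 3 enters both.

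In running mPFC against control mPFC, 35 members had the lower mean in running, against 56.2% of all genes, and Ndufb4 and Ndufa9 the higher one. These are means of log2 values: Ndufb6, nearly level on that scale, averaged 62.08 FPKM in running and 61.97 in control libraries. The median was -0.09, beside -0.02 over all genes, and no difference exceeded 0.18 in size. Genes with transcripts under 1000 bases had a median of -0.11, and 80.2% of them had the lower mean in running. In limma, adjusted p-values were 0.370 to 0.995 and no member was called, against 3 genes in all (0.0214%). Ndufs7 alone had an unadjusted p under 0.05 in limma (2.7% of members), against 6.47% lower among all genes. In 4 members (10.8%), Ndufs5, Ndufb10, Ndufs7 and Ndufa13, every running library lay below every control library, against 11.9% of all genes, a share near the background. After quantile normalization or rescaling to TPM, 7 members were higher in running and 30 lower, with medians of -0.07 and -0.06.

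**Figure D2:**
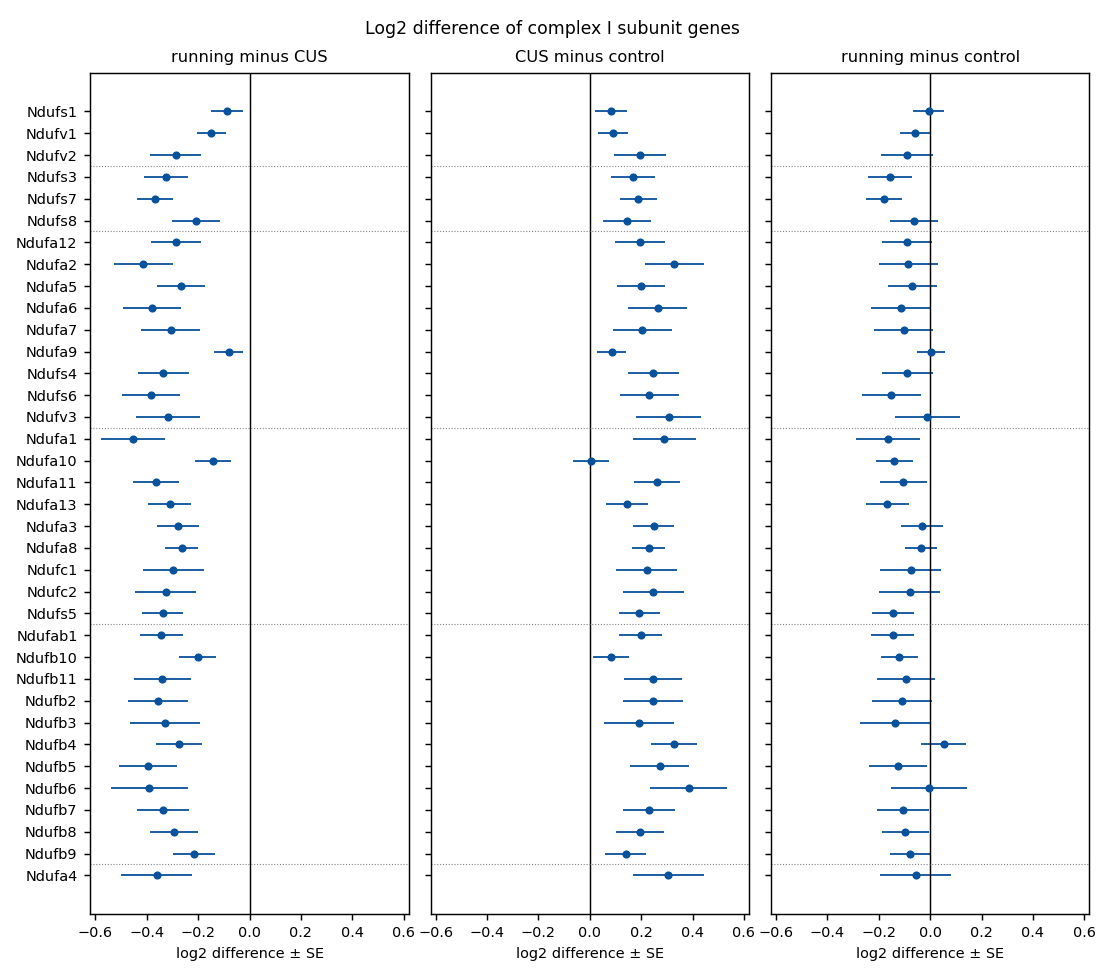
Log2 difference ± SE from limma for 36 of the 37 complex I subunit genes, in running minus CUS (left), CUS minus control (middle) and running minus control (right), on log2(FPKM + 0.5). All 36 points drawn are below 0 on the left, all 36 are above 0 in the middle, and 34 of 36 are below 0 on the right.

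Without CUS replicate 3 the directions of all 37 members were kept and the differences shrank. The median against control was 0.11 in place of 0.20, and running against CUS it was -0.20 in place of -0.32. Unadjusted p-values under 0.05 in limma then remained for 4 members higher in CUS than control (10.8%, against 5.79% of all genes) and for 23 members lower in running than CUS (62.2%, against 12.3%). No member was called in either comparison. Without CUS replicate 2, the CUS library with the lowest values of most members, the median was -0.40. At an adjusted p under 0.05 limma then called 24 of 37 members, all lower in running than CUS. Over all genes it called 1518 in either direction (10.8%).

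The 3 core subunits of the NADH arm accept electrons from NADH. Ndufv1, which holds the flavin and the NADH site, had 83.45, 74.94 and 76.94 FPKM in running, 86.65, 89.44 and 84.74 in CUS, and 83.34, 78.58 and 82.95 in control libraries. All CUS values of Ndufv1 lay above all others, by little: the log2 difference was -0.15 for running against CUS and 0.09 for CUS against control (limma, adjusted p = 0.159 and 0.448). Ndufs1, the large iron-sulfur subunit, had 45.43, 41.76 and 42.80 FPKM in running, 49.22, 42.94 and 46.14 in CUS, and 42.47, 44.41 and 43.64 in control libraries. Its groups overlapped in every comparison, and its log2 difference for running against CUS was small, -0.09 (limma, adjusted p = 0.417). Ndufv2, an iron-sulfur partner of Ndufv1, had 73.49, 62.18 and 64.28 FPKM in running, 81.34, 70.22 and 93.93 in CUS, and 70.04, 67.80 and 74.96 in control libraries. CUS replicate 3 was the highest library for Ndufv2 and CUS replicate 2 lay within the range of the other groups. Its log2 difference was -0.29 for running against CUS and 0.20 for CUS against control (limma, adjusted p = 0.132 and 0.370), near the medians of the members.

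The core of the quinone arm carries electrons to ubiquinone. Ndufs7, which holds the terminal iron-sulfur cluster, had 93.08, 83.86 and 85.95 FPKM in running, 113.45, 107.06 and 119.25 in CUS, and 93.35, 97.24 and 107.49 in control libraries. All running values lay below all CUS and all control values, while CUS replicate 2 and control replicate 3 were nearly level. Its log2 difference for running against CUS was -0.37 ± 0.0705 (SE), the smallest p of the members (limma, adjusted p = 0.0776), and was -0.33 without CUS replicate 3. It was -0.18 ± 0.0705 (SE) for running against control (limma, adjusted p = 0.370) and 0.19 for CUS against control (limma, adjusted p = 0.294).

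Ndufs3, a structural core subunit, had 97.23, 82.19 and 83.30 FPKM in running, 106.90, 102.96 and 119.17 in CUS, and 93.90, 92.55 and 106.46 in control libraries. Ndufs8, which carries iron-sulfur clusters, had 72.85, 67.85 and 66.78 FPKM in running, 71.55, 80.08 and 89.13 in CUS, and 72.69, 64.52 and 80.54 in control libraries. Running and CUS values overlapped for Ndufs8 and were separate for Ndufs3. The log2 difference of Ndufs3 for running against CUS was -0.32 (limma, adjusted p = 0.0877), beside -0.21 for Ndufs8. For running against control Ndufs3 differed by -0.16 ± 0.0857 (SE; limma, adjusted p = 0.510), or -0.09 without control replicate 3.

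Accessory subunits of the matrix arm stabilise the redox core. Their median log2 difference was 0.23 for CUS against control and -0.32 for running against CUS, and 6 of the 9 had all running values below all CUS values, against 15.9% of all genes and 39.7% of genes under 1000 bases. Ndufa2, a subunit with a thioredoxin fold, had 68.57, 60.19 and 58.90 FPKM in running, 80.07, 71.52 and 101.01 in CUS, and 64.78, 62.10 and 72.13 in control libraries. For Ndufa2 CUS replicate 2 lay just under control replicate 3, and the difference of CUS against control was 0.33 ± 0.115 (SE; limma, adjusted p = 0.274), or 0.19 without CUS replicate 3. Ndufs4, whose loss causes a Leigh-like encephalopathy in mice, had 28.32, 25.29 and 26.33 FPKM in running, 31.58, 30.33 and 40.03 in CUS, and 26.10, 28.95 and 30.14 in control libraries. All CUS values of Ndufs4 lay above all others, with CUS replicate 3 far above the other 2. Ndufa9, which sits beside the quinone site, had 61.83, 60.73 and 61.24 FPKM in running, 64.73, 61.14 and 68.94 in CUS, and 60.60, 60.41 and 62.40 in control libraries. Ndufa9 was nearly flat, with log2 differences of -0.08 for running against CUS and 0.00 for running against control.

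Accessory subunits of the proximal membrane arm lie where the membrane arm meets the matrix arm. Ndufs5, on the intermembrane space side, had 138.21, 129.67 and 133.68 FPKM in running, 167.72, 150.85 and 191.88 in CUS, and 151.32, 142.20 and 150.98 in control libraries. All running values of Ndufs5 lay below all values of both other groups, and its difference of running against CUS was -0.34 ± 0.0810 (SE; limma, adjusted p = 0.0796), or -0.25 without CUS replicate 3. Ndufa8, also on the intermembrane space side, had 98.89, 96.15 and 94.37 FPKM in running, 107.81, 115.51 and 125.21 in CUS, and 97.51, 96.04 and 103.19 in control libraries. All CUS values of Ndufa8 lay above those of running and control, which overlapped each other. Its log2 difference was -0.26 ± 0.0638 (SE) for running against CUS and 0.23 ± 0.0638 (SE) for CUS against control (limma, adjusted p = 0.0811 and 0.255). After quantile normalization these were -0.16 and 0.15.

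Ndufa11, a membrane subunit and the lowest member, had 23.42, 18.98 and 19.41 FPKM in running, 26.76, 23.91 and 29.30 in CUS, and 22.14, 22.11 and 22.00 in control libraries. The controls had an SD of 0.0737 FPKM (n = 3), and all CUS values lay above both other groups. The log2 difference was -0.37 ± 0.0902 (SE) for running against CUS and 0.26 ± 0.0902 (SE) for CUS against control (limma, adjusted p = 0.0832 and 0.270). Ndufa3, a small membrane subunit, had 217.08, 202.34 and 213.15 FPKM in running, 238.42, 241.97 and 289.83 in CUS, and 210.17, 206.64 and 229.65 in control libraries. Ndufa3 too was separate in CUS, by 0.25 ± 0.0815 (SE) against control (limma, adjusted p = 0.267). This was 0.16 without CUS replicate 3, 0.11 after quantile normalization and 0.13 after removal of a length and GC trend.

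Ndufa1, another small membrane subunit, had the largest difference of running against CUS, with 63.42, 53.93 and 58.47 FPKM in running, 83.68, 64.10 and 96.41 in CUS, and 62.15, 65.63 and 69.02 in control libraries. Its 3 CUS libraries were far apart, and CUS replicate 2 lay among the controls. Ndufa13, also known as GRIM-19, had 85.47, 77.46 and 78.61 FPKM in running, 92.86, 93.69 and 114.71 in CUS, and 89.94, 86.68 and 94.65 in control libraries. All running values of Ndufa13 lay below the other groups, by -0.17 ± 0.0835 against control (SE; limma, adjusted p = 0.470). Ndufa10, related to nucleoside kinases, had 93.20, 79.74 and 82.31 FPKM in running, 98.81, 89.27 and 93.53 in CUS, and 93.53, 89.44 and 97.81 in control libraries. CUS and control overlapped fully for Ndufa10, and the difference of running against control was -0.14 ± 0.0707 (SE; limma, adjusted p = 0.477).

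**Figure D3:**
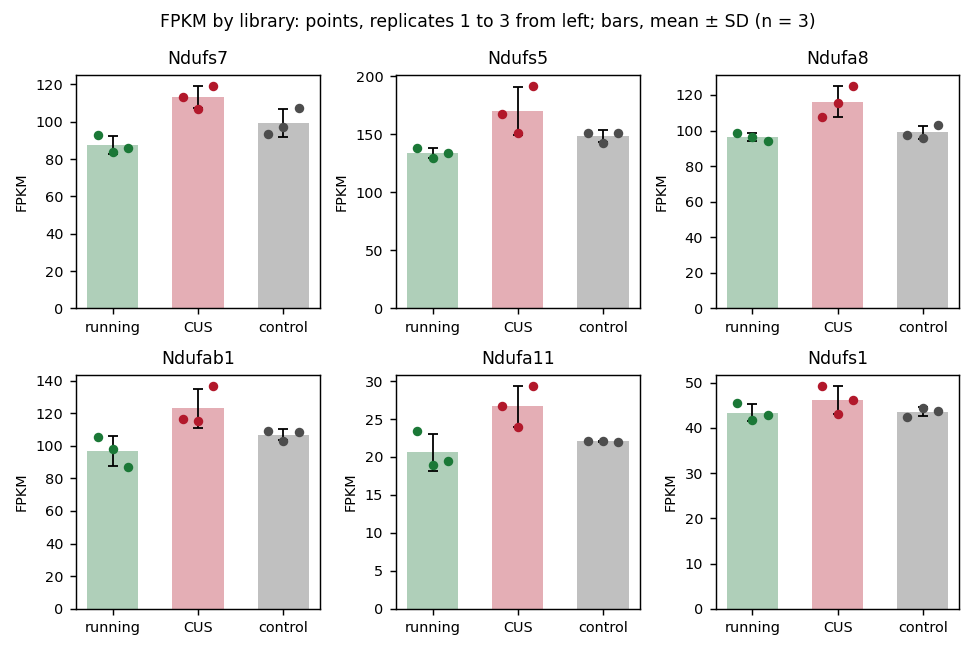
FPKM of the 5 members with the smallest p in running against CUS, and of the core subunit Ndufs1, in running, CUS and control libraries. Points are libraries and bars the mean ± SD (n = 3). The running and CUS points are separate in the first 5 panels and overlap for Ndufs1.

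Accessory subunits of the distal membrane arm surround the far pumps, and all 11 had an unadjusted p under 0.05 in limma for running against CUS, against 15.7% lower among all genes and 51.5% among genes under 1000 bases. Ndufab1, the mitochondrial acyl carrier protein, had 105.52, 97.79 and 87.04 FPKM in running, 116.69, 115.46 and 136.66 in CUS, and 109.03, 103.13 and 108.37 in control libraries. All CUS values of Ndufab1 lay above both other groups, and its difference of running against CUS was -0.34 ± 0.0841 (SE; limma, adjusted p = 0.0827). Ndufb4, a membrane subunit, had 186.53, 182.67 and 171.02 FPKM in running, 218.23, 190.33 and 249.03 in CUS, and 179.57, 166.24 and 175.02 in control libraries. Ndufb4 had the smallest p for CUS against control, with 0.33 ± 0.0890 (SE; limma, adjusted p = 0.253), and was one of the 2 members higher in running than control (0.05). The gene Ndufb4c, whose reads may be shared with Ndufb4, had 28.91, 20.41 and 23.97 FPKM in running, 34.35, 28.78 and 38.90 in CUS, and 29.17, 26.97 and 32.77 in control libraries, so the value of Ndufb4 is uncertain to that extent.

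Ndufb9, an accessory subunit that binds the acyl carrier protein, had 218.22, 201.98 and 206.63 FPKM in running, 241.61, 225.51 and 262.07 in CUS, and 209.10, 208.52 and 245.15 in control libraries. Running and CUS were separate for Ndufb9, and CUS and control overlapped. Ndufa4, first assigned to complex I and since found with complex IV, had 419.98, 325.46 and 340.59 FPKM in running, 440.96, 386.37 and 580.58 in CUS, and 361.06, 373.08 and 388.31 in control libraries. CUS replicate 3 stood far above the other CUS libraries of Ndufa4, and running replicate 1 lay inside the CUS range.

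Transcript length went with the size of the members' differences in the comparisons that involve CUS. The members had a median transcript length of 763 bases (315 to 3479), against 2915 over the kept genes with a length. Over the 37 members, log2 length and the log2 difference had a Pearson r of 0.522 (Spearman 0.469) for running against CUS, and of -0.507 (-0.468) for CUS against control. The points share their libraries, and genes are not independent replicates. The same relation over 13766 genes had r = 0.53 for running against CUS and -0.334 for CUS against control. For running against control r was 0.066 (Spearman 0.059) over the members and 0.249 over the 13766 genes. Among all 897 genes under 1000 bases the median was -0.27, 88.2% were lower in running than CUS and 39.7% had no overlap, whereas the 12869 longer genes had a median of -0.02 and 14.4% lower with no overlap.

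The 24 members under 1000 bases had a median of -0.33 for running against CUS. The 13 of 1000 bases or more, with Ndufab1 the longest, had a median of -0.29. In 8 of those 13 (61.5%) running and CUS did not overlap, against 14.4% lower with no overlap among all genes of that class. Only Ndufab1 of these members was longer than the median of all kept genes (2915 bases), so the members and the class were not alike in length. After a smooth trend on length and GC content was removed from each library, the median of the 37 members was -0.12 for running against CUS (all genes -0.04), 0.12 for CUS against control (0.03) and -0.01 for running against control (-0.02). The direction then held for 36 of 37 members in running against CUS, with Ndufa9 at 0.04, and for 34 in CUS against control, with Ndufa9, Ndufa10 and Ndufb10 slightly below 0. For running against control 17 were higher and 20 lower. Ndufab1 was at -0.36 for running against CUS (limma, adjusted p = 0.108), but at -0.23 when the trend used lengths from all coding transcripts, so its value depends on the length it is given. Ndufs7 was at -0.18, Ndufa11 at -0.15, Ndufs5 at -0.12 and Ndufa8 at -0.09. What gives short transcripts this pattern was not tested.

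**Figure D4:**
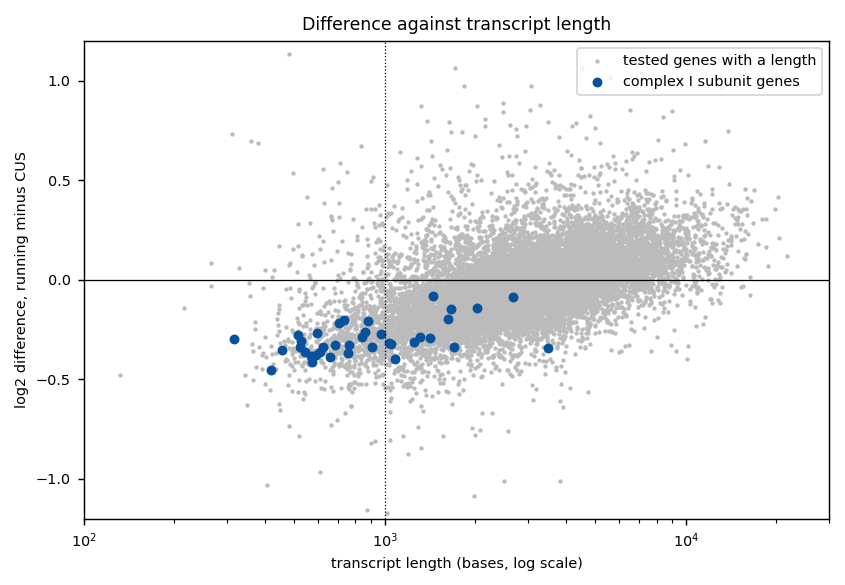
Log2 difference of running minus CUS against transcript length (bases, log scale) for the tested genes with a length (grey) and the 37 complex I subunit genes (blue); the dotted line is at 1000 bases and 10 genes lie outside the axes. Blue points lie from -0.45 to -0.08, most of them at short lengths, where grey points also lie mostly below 0.

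Summed marker levels of several cell types differed between the same groups. The sum of 5 inhibitory neuron markers was 624 to 683 FPKM in running and 729 to 813 in CUS libraries. Sst, which made up most of that sum, differed by -0.34 on the log2 scale, while Gad1, Gad2 and Pvalb had the higher mean in running (0.05, 0.19 and 0.19). Of the 5 excitatory markers, whose sum was higher in running than CUS, 2 had the higher mean in running, Camk2a (0.20) among them, and Slc17a7 (-0.04), Tbr1 (-0.14) and Neurod6 (-0.17) had the lower one. Astrocyte markers summed to 364 to 391 FPKM in CUS and 409 to 450 in control libraries, and all 5 had the lower mean in CUS (median log2 difference -0.19). All 5 also had the higher mean in running than CUS (median 0.14), though their sums of 388 to 451 FPKM in running overlapped those in CUS. All 5 oligodendrocyte markers also had the lower mean in CUS than control (median -0.56). Control replicate 3 stood apart for these, with Mbp at 753.78 FPKM, against 387.03 and 412.38 in control replicates 1 and 2. The 3 blood markers summed to 693 to 867 FPKM in running, 474 to 736 in CUS and 335 to 599 in control libraries. Their part in the values of the members was not tested.

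Other genes of the pathway were read from fixed lists, with no gene of any list called in any comparison. One list held 18 assembly factors of complex I, which build the complex but are not part of it. Of these, 13 (72.2%) had the higher mean in CUS than control (median 0.12), against 55.9% of all genes. An unadjusted p under 0.05 in limma was found for 5.56%, against 8.9% higher among all genes. In running against CUS, 17 (94.4%) had the lower mean (median -0.16), against 57.8% of all genes. There 27.8% had an unadjusted p under 0.05 in limma, against 15.7% lower among all genes. Ndufaf8 had 18.08, 15.73 and 14.87 FPKM in running, 23.68, 20.68 and 28.62 in CUS, and 20.51, 22.49 and 22.42 in control libraries. All its running values lay below the other groups, by -0.56 against CUS and -0.42 against control (limma, adjusted p = 0.0776 and 0.209). Ecsit, an assembly factor also known from immune signalling, had 25.38, 24.22 and 22.60 FPKM in running against 26.43, 28.72 and 27.99 in CUS libraries, a difference of -0.20 (limma, adjusted p = 0.0990).

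Of 14 regulators of mitochondrial biogenesis, 7 were higher and 7 lower in running than CUS, with a median of 0.00. Ppargc1a, the coactivator PGC-1alpha, had 7.15, 6.56 and 6.92 FPKM in running, 6.97, 5.74 and 5.63 in CUS, and 6.87, 6.86 and 7.21 in control libraries. CUS replicates 2 and 3 were the lowest, while CUS replicate 1 lay among the controls, and CUS against control differed by -0.18 (limma, adjusted p = 0.344). Pprc1, a related coactivator, had 5.47, 6.29 and 6.06 FPKM in running, 5.25, 5.31 and 4.21 in CUS, and 4.96, 4.6 and 4.90 in control libraries. All running values of Pprc1 lay above both other groups, by 0.25 against CUS and 0.27 against control (limma, adjusted p = 0.151 and 0.311).

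The lists of other respiratory complexes and of ribosomal proteins had medians on the same side of 0 as complex I. Of 47 subunits of respiratory complexes II to V, 45 had the lower mean in running than CUS (median -0.28) and 42 the higher mean in CUS than control (median 0.20). Among all genes, 57.8% and 55.9% did so. All 78 mitochondrial ribosomal proteins were lower in running than CUS (median -0.25) and higher in CUS than control (median 0.17). All 77 cytosolic ribosomal proteins, which lie outside mitochondria, were lower in running than CUS (median -0.36) and higher in CUS than control (median 0.22), and 93.5% of them had no overlap between running and CUS, against 15.9% of all genes. The median of the complex I members, -0.32, lay between those of the ribosomal lists. For running against control, the medians were -0.09 for complexes II to V, -0.06 for mitochondrial and -0.15 for cytosolic ribosomal proteins, beside -0.09 for complex I.

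**Figure D5:**
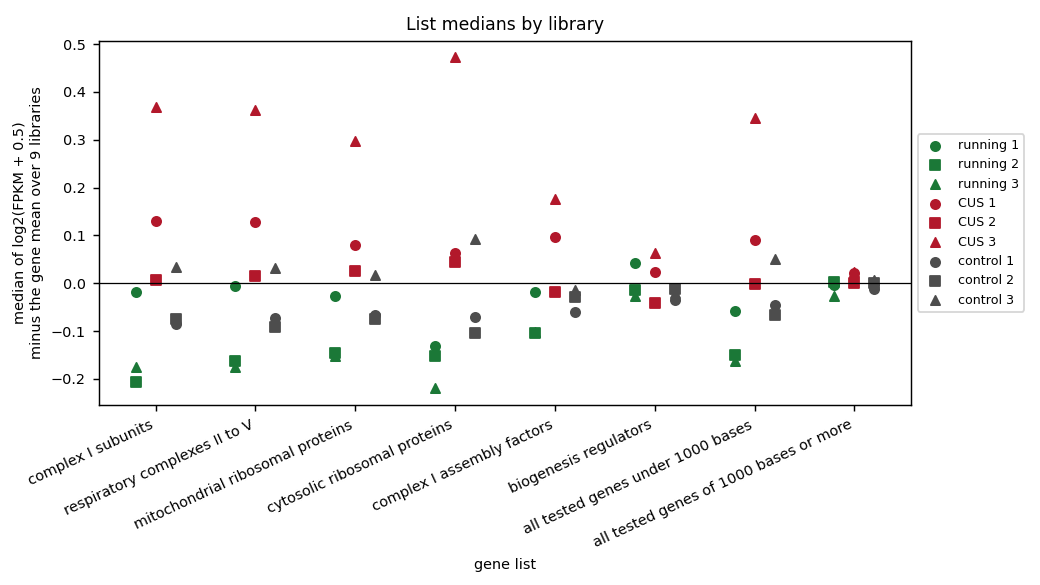
Median deviation of log2(FPKM + 0.5) from the gene means over 9 libraries (vertical axis), for each gene list (horizontal axis) and library; colours are the running, CUS and control groups and marker shapes replicates 1 to 3. CUS replicate 3 is the highest library for complex I (0.37), complexes II to V (0.36), both ribosomal lists (0.30 and 0.47) and genes under 1000 bases (0.35), and biogenesis regulators stay between -0.04 and 0.06.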

How the data were processed

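RNA from 9 mouse mPFC libraries was measured as FPKM values, which the authors deposited for 65389 rows. The build was mm10, and the tools named were RSEM 1.2.12, Bowtie2 2.2.5 and DESeq2 1.4.5, per the submitters' processing notes. The annotation, and what each tool did, is not given in the sources used here. Per the labels' protocols, RNA was extracted with Trizol and selected on oligo(dT), and nothing marks the strand. Rows without an NCBI gene number (30264) were all at 0 and were left out. The read depth behind the FPKM values is unknown, so no counting interval is given. FPKM sums per library were 370441 to 423257, with 17071 to 17280 genes above 0.

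All tests used log2(FPKM + 0.5) with no added scaling, a scale that understates changes of low genes. limma 3.58.1 in R 4.3.3 fitted 3 groups over all 9 libraries and 14013 genes, with an intensity trend, on 6 residual degrees of freedom and 4.71 prior ones (median). P-values are two-sided and adjusted by Benjamini-Hochberg over all genes. An exact test of 3 against 3 libraries cannot give a p under 0.10. The labels do not say that libraries come from separate animals, so p-values speak only of the spread among libraries, part of which may be technical. The fit was tested on simulated data with independent noise for each gene and library. Such noise holds no shift shared by the genes of a library, so the test does not cover one.

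Given in full were the 5 members with the smallest p in each comparison, the 3 highest and 2 lowest, members of opposite sign and the 7 core subunits, and up to 2 genes of each other list per comparison; Ndufa1 was added after its values were seen. The values of 1 member that this rule names are not reported here, though it stays in every fit, count and median. Members and lists were chosen with earlier results of these data known. Replicates were numbered in order of listing. Transcript length and GC content came from GENCODE M21 transcripts linked to RefSeq, for 13766 genes and all 37 members. Alternatives were other pseudocounts, no filter, TPM, quantile normalization, library quality weights, 6 libraries only, removal of the length and GC trend, and leaving out each library.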

Additional observations from a re-analysis of the deposited data

How the results depend on the processing

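The 37 members kept the direction of their median under every alternative run, but not its size. None of the 5 members with the smallest p in a comparison changed sign in it. Others did: Ndufa10 was lower in CUS than control, and Ndufs1 higher in running than CUS, after rescaling to TPM. FPKM carries no read depth, so precision rests on 3 libraries a group. No paired analysis was possible because the replicate numbers only follow the order of listing and pair no libraries. With library quality weights, limma called 25 members, all lower in running than CUS, and 2178 genes in either direction (15.5%). For running against control it called 147 genes and for CUS against control 8. After removal of the length and GC trend, the members' median was 0.12 for CUS against control (all genes 0.03). It was -0.12 for running against CUS (-0.04) and -0.01 for running against control (-0.02). For running against control 17 members were then higher and 20 lower. In the order of these medians, 0, 0 and 8 genes were called in all. With lengths from all coding transcripts, an alternative chosen after seeing the data, the medians were 0.15, -0.21 and -0.05, and 0, 3 and 4 genes were called. In running against CUS, limma called 0 genes with no filter, 3 after rescaling to TPM, 2 after quantile normalization and 15 in a fit of the 6 libraries; in running against control it called 1 with no filter and 24 with the 6 libraries. Leaving out 1 library at a time gave 0 to 1518 genes and 0 to 24 members in running against CUS, 1 to 6 genes in CUS against control and 1 to 10 in running against control. Without CUS replicate 2 limma called 1518 genes and 24 members in running against CUS, and without any other library it called 0 members. The members' medians then ranged from -0.40 to -0.20 for running against CUS, 0.11 to 0.29 for CUS against control and -0.16 to -0.05 for running against control; the cause was not tested. The 5 members named for running against CUS were called with quality weights and without CUS replicate 2.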
